A study of Mus musculus with 11 samples.

Results

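Neurons of the ventral posteromedial nucleus (VPM), which relays touch from the whiskers and face, were set against neurons of the ventral medial geniculate nucleus (MGv), which relays sound, across all genes of the mouse genome. The comparison took the 4 VPM and the 3 MGv libraries, 7 of the 11 libraries of the series, chosen by their sample titles. The other 4 libraries, from the dorsolateral geniculate nucleus (dLG), entered the model only to help estimate the spread between replicates. All mice were newborn (postnatal day 0), of the outbred ICR/CD-1 strain, and carried Gbx2CreER-IRES-EGFP/+ with R26lsl-tdTomato/+. Every nucleus therefore carried 1 Gbx2 allele with the inducible Cre and EGFP cassette, and after tamoxifen the cells that expressed Gbx2, a gene of postmitotic thalamic neurons, made the red protein tdTomato. Each library came from red cells of 4 pooled brains, purified by fluorescence-activated cell sorting after papain digestion of the dissected nuclei. Untreated mice or cells outside the red gate were not part of the comparison, and its only contrast was between nuclei.

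VPM and MGv are first-order relay nuclei. VPM receives trigeminal input from the brainstem and projects to the barrel field of the primary somatosensory cortex, and MGv receives input from the inferior colliculus and projects to the primary auditory cortex. Guidance receptors, adhesion molecules and secreted signals help to sort growing thalamic axons by modality. Both hold glutamatergic neurons of the caudal thalamic lineage, which share transcription factors such as Tcf7l2, Lhx2, Lef1 and Gbx2.

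Total counts were 18909454 to 23559130 per VPM library and 10175653 to 13164909 per MGv library, so every VPM library was deeper than every MGv library. By a two-sided exact permutation of the 7 labels, with 35 possible divisions, this difference had p = 0.0286, the smallest that the design allows, and an adjusted p of 0.114 over 4 library measures. A count of 3, taken as the floor, corresponded to 0.127 to 0.159 counts per 1000000 (CPM) in VPM and 0.228 to 0.295 CPM in MGv. VPM replicate 3 stood apart, with 7.0% of its counts from mitochondrial genes against 2.88 to 4.61% in the other 6 libraries. The RNA of the constitutive chaperone Hspa8 was nearly missing in VPM replicate 3 and MGv replicate 1, at 4.09 and 5.56 CPM, against 159 to 364 CPM in the other 5. Results that rest on VPM replicate 3 or MGv replicate 1 are therefore also given without them.

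At a Benjamini-Hochberg adjusted p below 0.1 in the quasi-likelihood test of edgeR, 3016 of 15907 genes (19.0%) differed between the nuclei. Of these, 1654 were higher in VPM (10.4%) and 1362 were higher in MGv (8.56%). These shares are the background for every count of listed genes given here, and a gene is named "called" when it passed this test. More than a 2-fold difference, an absolute log2 fold change over 1, was found for 953 of the genes higher in VPM and 606 of those higher in MGv. Genes whose 4 VPM and 3 MGv libraries did not overlap numbered 3995 (25.1% of the genes tested). Among the called genes, 1478 of those higher in VPM and 1238 of those higher in MGv did not overlap. Most called genes thus did not overlap, so a lack of overlap adds little to the call of a gene named here. In the plot of level against fold change, the diagonal streaks at the upper left are genes with no or few reads in MGv. There were 55 called genes with 0 reads in all MGv libraries and 3 with 0 reads in all VPM libraries. Every VPM library was deeper than every MGv library, and the part of depth in this asymmetry was not tested. After all libraries were thinned to the smallest total, 1608 genes were called higher in VPM and 1243 higher in MGv, and 2684 of these 2851 genes were among the 3016. Without VPM replicate 3, 3235 genes were called, without VPM replicate 3 and MGv replicate 1 together 2668, and without MGv replicate 3 alone 2024, of which 863 were higher in MGv.

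**Figure D1:**
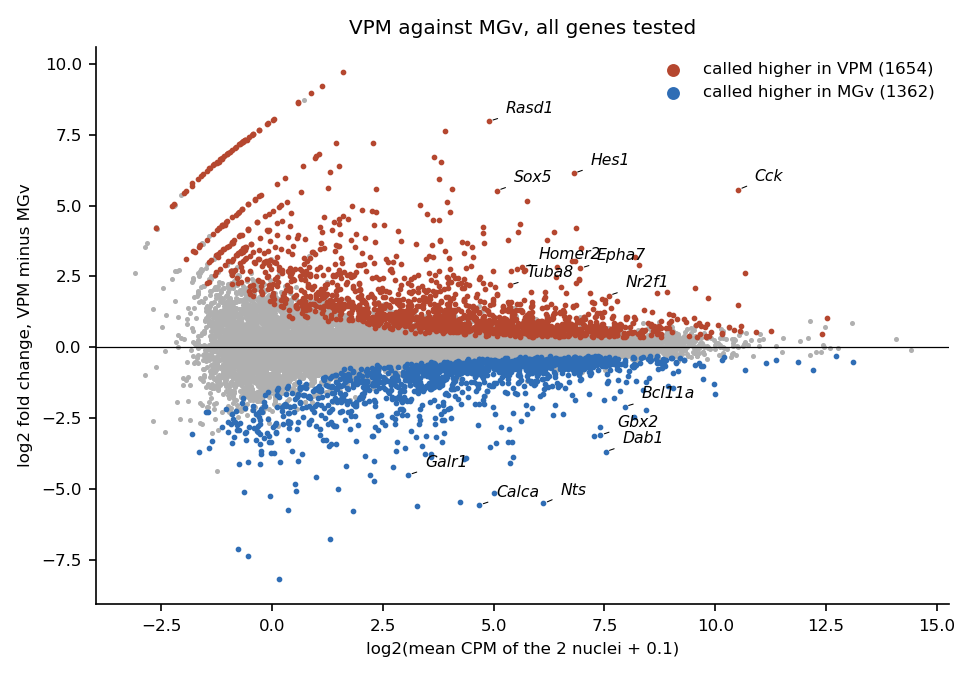
Each point is 1 of the 15907 genes tested, with the log2 of its mean CPM over VPM and MGv (plus 0.1) on the horizontal axis and its log2 fold change, VPM minus MGv, on the vertical axis. Red points are the 1654 genes called higher in VPM, blue points the 1362 called higher in MGv and gray points the genes that were not called, and Cck stands out as an abundant gene with a log2 fold change of 5.56.

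The 6 genes given as marks of the nuclei separated them without overlap in these libraries. They were chosen with earlier results of these data known, so their separation and calls are no independent support. Cck, the precursor of the peptide cholecystokinin (ENSMUSG00000032532, GRCm38 chr9:121489824-121495694, minus strand), had 3415, 2687, 3086 and 2266 CPM in VPM replicates 1 to 4 and 58.5, 73.9 and 50.1 CPM in MGv replicates 1 to 3. Each VPM library held far more than any MGv library, with a log2 fold change of 5.56 ± 0.45 (SE) and an adjusted p of 4.10e-06. Homer2 (ENSMUSG00000025813, chr7:81600481-81707527, minus strand), a scaffold of the postsynaptic density that binds group I metabotropic glutamate receptors, had 105, 91, 59.4 and 95.5 CPM in VPM replicates 1 to 4 and 12.5, 11.5 and 13 CPM in MGv replicates 1 to 3. Its VPM libraries were all above its MGv libraries, replicate 3 being the lowest of them (log2 fold change 2.83 ± 0.21, adjusted p = 1.82e-06). Tuba8 (ENSMUSG00000030137, chr6:121210696-121226854, plus strand), an alpha-tubulin, had 72.6, 59.1, 83.9 and 53.2 CPM in VPM replicates 1 to 4 and 16.5, 12.1 and 15.6 CPM in MGv replicates 1 to 3. Here VPM replicate 3 was the highest library, and the groups were again apart (log2 fold change 2.19 ± 0.20, adjusted p = 1.04e-05).

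On the MGv side, Nts, the precursor of neurotensin (ENSMUSG00000019890, chr10:102481756-102490486, minus strand), had 2.6, 3.25, 3.1 and 2.9 CPM in VPM and 86.6, 156 and 166 CPM in MGv. VPM stayed near 3 CPM in all 4 libraries (log2 fold change -5.52 ± 0.64, adjusted p = 7.15e-05). Galr1 (ENSMUSG00000024553, chr18:82392380-82406777, minus strand), a receptor for the peptide galanin, had 0.649, 1.08, 0.682 and 0.333 CPM in VPM and 14.9, 15.5 and 17.3 CPM in MGv. The MGv libraries lay close together and VPM replicate 4 was the lowest library (log2 fold change -4.51 ± 0.65, adjusted p = 0.000438). Gbx2 (ENSMUSG00000034486, chr1:89927956-89931179, minus strand), a homeobox factor of thalamic differentiation, had 27.4, 45.7, 27.3 and 40.7 CPM in VPM and 333, 308 and 272 CPM in MGv. Its groups were far apart (log2 fold change -3.11 ± 0.34, adjusted p = 4.29e-05), but the reading of this gene has limits, since 1 allele carries the Cre cassette, expression of Gbx2 selected the cells, and 43.5% of its exon length overlaps the opposite-strand gene D130058E05Rik. All 6 kept their calls in every one of the 18 alternative analyses that tested them, with adjusted p values of at most 0.00457, that of Galr1.

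Markers were used to ask what the sorted cells were. All 13 pan-neuronal genes were tested, with a summed level of 18900 to 22300 CPM in VPM and 17900 to 18700 CPM in MGv. Among them 3 were called higher in VPM (Nefm, Nefl and Snap25) and 2 higher in MGv (Rbfox3 and Map2), and leaving out MGv replicate 2 or 3, or VPM replicate 1, 3 or 4, left 1 of the latter. All 14 thalamic relay genes were tested as well, with a sum of 3340 to 4510 CPM in VPM and 4750 to 5130 CPM in MGv. Of these, 5 were called higher in VPM (3 without MGv replicate 1) and 5 higher in MGv, so relay genes were called in both directions. Tcf7l2, the Wnt effector that marks the thalamic lineage, had 563, 552, 468 and 542 CPM in VPM and 1147, 1072 and 1286 CPM in MGv (log2 fold change -1.14 ± 0.19, adjusted p = 0.00144). Calb2, which encodes calretinin, had 80, 104, 99.5 and 91.7 CPM in VPM and 338, 296 and 350.3 CPM in MGv (log2 fold change -1.81 ± 0.19, adjusted p = 3.75e-05). On the other side, Slc6a4, the serotonin transporter that newborn sensory relay neurons express for a time, had 369, 306, 129.5 and 266 CPM in VPM and 55.6, 78.9 and 114 CPM in MGv (log2 fold change 1.69 ± 0.36, adjusted p = 0.007). All 3 were apart without overlap, with the narrowest gap for Slc6a4 between VPM replicate 3 and MGv replicate 3. Prkcd, a protein kinase C isoform of first-order relay neurons, was at 52.2, 53.6, 48.4 and 62.8 CPM in VPM and 19.8, 27.8 and 18.1 CPM in MGv (log2 fold change 1.31 ± 0.18, adjusted p = 0.000279).

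Genes of other cell types were mostly low. The GABAergic list had 5 of 12 genes tested, with a sum of 3.95 to 14.0 CPM in VPM and 3.01 to 8.94 CPM in MGv, the vesicular transporter Slc32a1 having 1 read in VPM replicate 1 and 0 in the other 6 libraries. By edgeR 0 of these 5 genes were called in either direction, while 1 was higher in VPM at an unadjusted p under 0.05, limma called that number as well, as did edgeR without MGv replicate 3, and DESeq2 called 0. Of 10 microglial genes, which summed to 10.9 to 31.1 CPM in VPM and 11.0 to 26.0 CPM in MGv, 9 were tested and 0 called by edgeR, DESeq2 or limma, with 0 at an unadjusted p under 0.05. The astrocyte and radial glia list differed in both directions, with 2 of 14 genes called higher in VPM (0 without MGv replicate 1 or VPM replicate 2, and 1 without MGv replicate 3, VPM replicate 3 or VPM replicate 4) and 4 higher in MGv, and its sum was 248 to 327 CPM in VPM and 285 to 392 CPM in MGv. Slc1a3, the glutamate transporter of astrocytes and radial glia, had 5.79, 9.3, 3.23 and 10.3 CPM in VPM and 81.8, 90.3 and 45.5 CPM in MGv (log2 fold change -3.33 ± 0.70, adjusted p = 0.00626). Hopx, a homeodomain protein of radial glia and astrocytes, had 3.48, 5.41, 1.49 and 2.95 CPM in VPM and 20.6, 27.9 and 17.9 CPM in MGv (log2 fold change -2.72 ± 0.39, adjusted p = 0.000438). Both were higher in each MGv library than in each VPM library, whereas Gfap had at most 2 reads in any of the 7 libraries. The 5 oligodendrocyte genes tested summed to 46.2 to 76.8 CPM in VPM and 78.4 to 91.2 CPM in MGv and were split, Mbp being higher in MGv (log2 fold change -1.24 ± 0.34, adjusted p = 0.0281) and Mag higher in VPM (log2 fold change 2.68 ± 0.37, adjusted p = 0.000316). The 2 genes of this list called higher in MGv became 1 without MGv replicate 3, VPM replicate 1 or VPM replicate 2. Sox10 had at most 1 read in a library. Of 12 endothelial genes, 5 were tested, with 7.51 to 9.59 CPM in VPM and 2.62 to 3.76 CPM in MGv summed over them, and Tek was called higher in VPM. By edgeR, DESeq2 and limma 0 endothelial genes and 0 of the 3 blood cell genes tested were called higher in MGv, with 0 at an unadjusted p under 0.05. The blood cell genes summed to 3.68 to 17.6 CPM in VPM and 0 to 0.351 CPM in MGv, and the hemoglobin gene Hbb-bh1 was called higher in VPM. Of 10 genes of cortical excitatory neurons, 4 were tested, with 2 called in each direction and sums of 3.76 to 5.33 CPM in VPM and 2.81 to 13.3 CPM in MGv, and each 2 became 1 without VPM replicate 1, 2 or 4, those in VPM also without MGv replicate 1 or 2 and those in MGv also without MGv replicate 3. Of the markers of habenula, pretectum and midbrain, 5 of 14 were tested and Nr4a2 was called higher in MGv (not without MGv replicate 2 or VPM replicate 2 or 4), and of 9 genes of cycling cells 7 were tested and Mcm2 was called higher in MGv (not without MGv replicate 2 or 3 or VPM replicate 1 or 2). These 2 lists had sums of 14.1 to 25.6 and 27.9 to 37.9 CPM in VPM and of 15.0 to 25.5 and 25.7 to 36.9 CPM in MGv, and 0 of their genes were called higher in VPM by edgeR, DESeq2 or limma, with 0 at an unadjusted p under 0.05. The part of such cells in the differences reported here was not tested, and in pooled RNA a change in the share of a cell type cannot be told apart from a change of RNA per cell.

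The 12 genes with the largest fold changes in each direction were taken from called protein-coding genes with at least 10 CPM in the higher nucleus and no overlap between the libraries of the nuclei, so the separation of their libraries was set by the choice. On the VPM side, Rasd1, a small G protein induced by glucocorticoids, had 75.3, 62.3, 63.1 and 36 CPM in VPM and 0.30, 0.263 and 0.0972 CPM in MGv. These MGv values rest on 8 reads in all, against 4838 in VPM, and the log2 fold change was 7.98 ± 0.53 (adjusted p = 8.35e-07). Ntf3, which encodes the neurotrophin NT-3, had 25.2, 39.5, 28 and 25.1 CPM in VPM and 0.15, 0.263 and 0 CPM in MGv. MGv held 5 reads of it in all and VPM 2433, with a log2 fold change of 7.62 ± 0.51 (adjusted p = 9.13e-07). Hes1, a Notch-regulated transcriptional repressor, had 208, 223, 213 and 239 CPM in VPM and 0.977, 5.44 and 3.11 CPM in MGv. Its VPM libraries lay close together and all MGv libraries were low (log2 fold change 6.14 ± 0.45, adjusted p = 1.90e-06). Sox5, a SoxD transcription factor, had 51.5, 62.5, 78.7 and 69.95 CPM in VPM and 0.902, 1.49 and 1.94 CPM in MGv. Its log2 fold change was 5.53 ± 0.25 (adjusted p = 5.11e-08), and dLG, which is no side of this comparison, averaged 156 CPM.

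Further genes of these 12 were lower in VPM replicate 3 than in the other VPM libraries. Cpt1a, the carnitine palmitoyltransferase that admits fatty acids to mitochondria, had 37.2, 32.5, 14.2 and 26.5 CPM in VPM and 0, 0.527 and 0.389 CPM in MGv (10 reads in MGv, log2 fold change 6.54 ± 0.74, adjusted p = 6.00e-05). Nexn, an actin-binding protein, had 138, 122, 61.5 and 98.1 CPM in VPM and 2.85, 1.4 and 4.57 CPM in MGv (log2 fold change 5.16 ± 0.46, adjusted p = 9.92e-06). Car4, a membrane-bound carbonic anhydrase, had 37.5, 34, 14.5 and 19.7 CPM in VPM and 0.30, 0.878 and 0.0972 CPM in MGv (15 reads in MGv, log2 fold change 5.93 ± 0.70, adjusted p = 8.70e-05). Of the 12 largest on the VPM side the others were Cck, the phosphatase gene Ppm1j, the activin subunit gene Inhba, Fam19a4, a secreted chemokine-like protein, and Cmtm8, with log2 fold changes between 4.79 for Cmtm8 and 6.72 for Ppm1j.

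**Figure D2:**
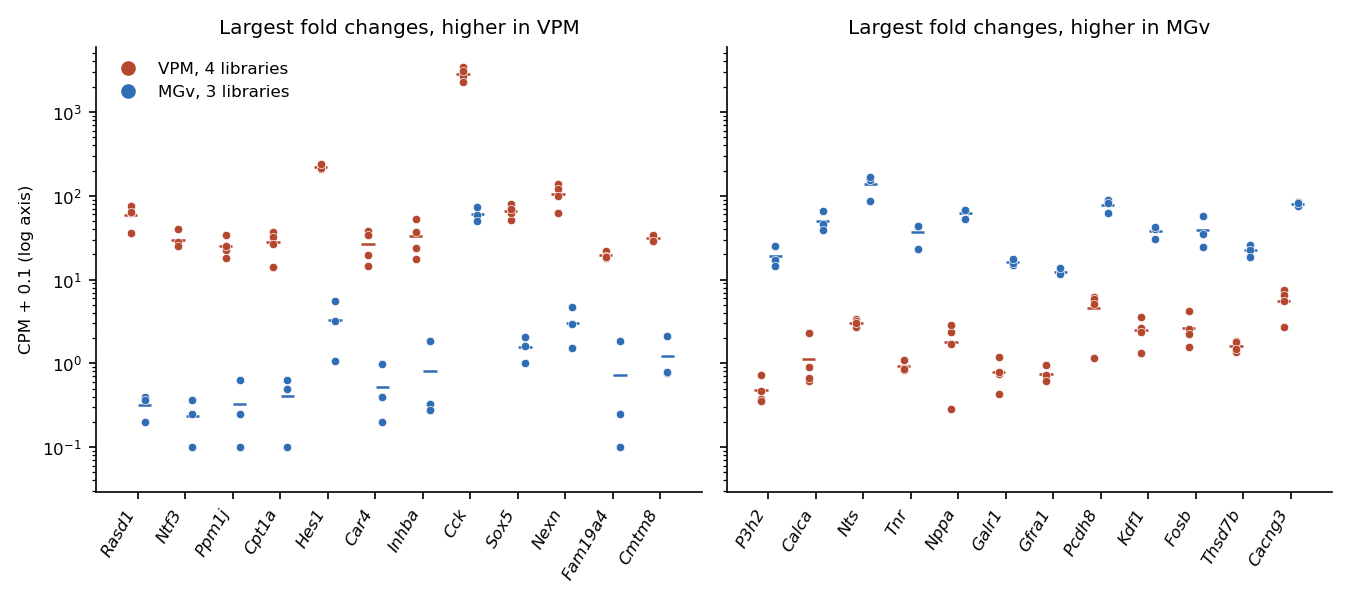
CPM plus 0.1 on a log axis for the 12 protein-coding genes with the largest fold changes in each direction among called genes with at least 10 CPM in the higher nucleus and no overlap of libraries, each dot 1 library, red for the 4 VPM and blue for the 3 MGv libraries, with a line at the mean. The separation of the dots was a condition of the choice, and dots at 0.1 are MGv libraries without a read.

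Among the 12 genes chosen in the same way on the MGv side, P3h2, a prolyl hydroxylase that modifies collagen, had 0.278, 0.26, 0.372 and 0.618 CPM in VPM and 24.8, 17.2 and 14.4 CPM in MGv (log2 fold change -5.6 ± 0.65, adjusted p = 7.44e-05), with 28.4% of its exon length overlapping an opposite-strand gene. Tnr, tenascin-R of perineuronal and perinodal matrix, had 0.742, 0.779, 0.992 and 0.761 CPM in VPM and 43.5, 23.3 and 42.9 CPM in MGv (log2 fold change -5.48 ± 0.38, adjusted p = 1.27e-06). Pcdh8, an activity-regulated protocadherin, had 6.12, 5.8, 1.05 and 4.99 CPM in VPM and 89.1, 62.8 and 82.2 CPM in MGv (log2 fold change -4.1 ± 0.43, adjusted p = 3.50e-05). In each of these the lowest MGv library exceeded the highest VPM library by more than the spread within either nucleus. Cacng3, an auxiliary subunit of AMPA receptors, had 2.6, 7.36, 6.51 and 5.52 CPM in VPM and 84.5, 75.6 and 81.2 CPM in MGv (log2 fold change -3.87 ± 0.46, adjusted p = 9.04e-05). Gfra1, the co-receptor of GDNF, had 0.603, 0.866, 0.62 and 0.523 CPM in VPM and 11.9, 11.4 and 13.8 CPM in MGv (log2 fold change -4.22 ± 0.26, adjusted p = 4.73e-07). Kdf1 and Thsd7b had log2 fold changes of -3.96 ± 0.35 (adjusted p = 9.92e-06) and -3.88 ± 0.29 (adjusted p = 2.51e-06).

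By the size of the difference in CPM, which favors abundant transcripts, VPM stood out for Cck, Tmsb4x, Pcp4, Calm2, Nefl and Ntm. Pcp4, a small calmodulin-binding protein, had 2902, 2888, 2954 and 2501 CPM in VPM and 390.5, 590.4 and 404 CPM in MGv. The gap to MGv was wider than the spread of either nucleus (log2 fold change 2.61 ± 0.20, adjusted p = 2.85e-06). Ntm, the adhesion molecule neurotrimin, had 1324, 1363, 1524 and 1438 CPM in VPM and 439, 396 and 431 CPM in MGv (log2 fold change 1.74 ± 0.12, adjusted p = 9.58e-07). Tmsb4x, an actin-sequestering peptide, had 5594, 6276, 14960 and 4371 CPM in VPM and 4006, 4569 and 3012 CPM in MGv, and VPM replicate 3 was far above the other libraries. Its groups overlapped, and its call (log2 fold change 1.01 ± 0.34, adjusted p = 0.0701) was lost without VPM replicate 3, MGv replicate 1 or MGv replicate 3, as was that of Calm2 without any of these or MGv replicate 2 or VPM replicate 2. MGv stood out for genes that included Actb, Mapt, Celf4, Olfm1 and Ttc3. Celf4, an RNA-binding protein of excitatory neurons, had 465, 572, 412 and 505 CPM in VPM and 1346, 1575 and 1732 CPM in MGv (log2 fold change -1.67 ± 0.16, adjusted p = 1.85e-05). Actb, cytoplasmic beta-actin, had 7807, 7554, 6936 and 6891 CPM in VPM and 10290, 9655 and 11290 CPM in MGv (log2 fold change -0.51 ± 0.11, adjusted p = 0.00657). Both were higher in each MGv library, whereas Mapt lost its call without MGv replicate 2 or 3 and Ttc3 without MGv replicate 3.

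Neuropeptide genes divided the nuclei. Of 54 peptide and granin genes listed, 35 were tested. Of these, 5 were called higher in VPM (14.3% of those tested, against 10.4% of all genes) and 10 higher in MGv (28.6%, against 8.56%). Across the alternatives and stricter thresholds, the count in VPM was 2 to 9 and that in MGv 8 to 11. With only the VPM and MGv libraries the counts were 8 and 10, and by DESeq2 they were 7 and 11. The median log2 fold change over the list was -0.09, against 0.02 over all genes tested. Gal, the precursor of galanin, went with Cck, at 179.9, 142, 158 and 141 CPM in VPM and 5.79, 9.22 and 12.9 CPM in MGv. All VPM libraries were more than 10-fold above the highest MGv library, and the log2 fold change was 4.07 ± 0.37 (adjusted p = 1.07e-05). The receptor Galr1 was thus on the MGv side and its ligand on the VPM side. Pnoc, the precursor of nociceptin, was modestly higher in VPM (log2 fold change 0.95 ± 0.23, adjusted p = 0.0135), as was the granin-like chaperone Scg5 (log2 fold change 0.70 ± 0.18, adjusted p = 0.0227).

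In MGv, Calca, which encodes calcitonin and the calcitonin gene-related peptide, had 0.51, 2.21, 0.806 and 0.571 CPM in VPM and 46.5, 38.5 and 64.8 CPM in MGv (log2 fold change -5.58 ± 0.45, adjusted p = 3.62e-06). Nppa, the precursor of atrial natriuretic peptide, had 2.27, 2.77, 0.186 and 1.62 CPM in VPM and 67.1, 67.4 and 53.1 CPM in MGv (log2 fold change -5.15 ± 0.61, adjusted p = 8.64e-05), with 61.5% of its exon length shared with an opposite-strand gene. Tac1, the precursor of substance P, had 1.34, 2.94, 3.16 and 1.71 CPM in VPM and 11.5, 7.72 and 15.6 CPM in MGv (log2 fold change -2.34 ± 0.33, adjusted p = 0.000397). The groups were apart for all 3, and the other genes called higher in MGv were Nts, Nxph3, Pam, Adcyap1, Vgf, Scg3 and Chgb, several of them genes of the dense-core granule. Genes of neuropeptide receptors were called mostly on the MGv side. Of 49 peptide receptor genes, 34 were tested, 2 were called higher in VPM (5.88% of those tested) and 9 higher in MGv (26.5%). Over all genes the shares were 10.4% and 8.56%. Of the 2 in VPM, Ntsr2 lost its call without any 1 of the 7 libraries. The count in VPM was then 1, or 3 without MGv replicate 2.

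Rxfp1, a receptor for relaxin, had 3.71, 3.55, 2.11 and 3.33 CPM in VPM and 24.1, 30.3 and 23.8 CPM in MGv (log2 fold change -3.03 ± 0.60, adjusted p = 0.00442). Gpr83, an orphan receptor when first cloned, had 1.99, 4.07, 0.248 and 3.85 CPM in VPM and 18, 33.5 and 17.8 CPM in MGv (log2 fold change -3.16 ± 0.87, adjusted p = 0.0287). In both the lowest MGv library was above the highest VPM library. Tacr3, the neurokinin B receptor, reached only 4.96, 7.9 and 5.05 CPM in MGv, and its call (log2 fold change -2.42 ± 0.74, adjusted p = 0.0471) was lost without MGv replicate 2 or VPM replicate 1.

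Promoter sequences are shown for Cck, the peptide gene with the largest difference toward VPM, and for Calca and Nts, those with the largest toward MGv. They are the RefSeq windows upstream of the start (GRCm38.p6), 5′ to 3′ on the gene's strand, cut where a GENCODE exon begins, with capitals on matches to TGACG, the core of the cAMP response element, and to TGANTCA, an AP-1 pattern, on either strand. No capital run belonged to both patterns.
Cck, chr9:121495695-121495944: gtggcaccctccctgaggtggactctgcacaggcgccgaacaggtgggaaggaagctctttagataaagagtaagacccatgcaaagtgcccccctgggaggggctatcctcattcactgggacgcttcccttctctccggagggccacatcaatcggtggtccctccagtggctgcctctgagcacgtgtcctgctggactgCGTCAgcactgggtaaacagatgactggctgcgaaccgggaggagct
Calca, chr7:114636358-114636607: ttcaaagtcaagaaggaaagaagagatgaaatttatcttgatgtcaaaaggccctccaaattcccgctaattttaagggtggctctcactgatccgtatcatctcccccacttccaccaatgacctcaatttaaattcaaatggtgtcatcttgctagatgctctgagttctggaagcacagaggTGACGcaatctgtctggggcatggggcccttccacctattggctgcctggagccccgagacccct
Nts, chr10:102490487-102490668: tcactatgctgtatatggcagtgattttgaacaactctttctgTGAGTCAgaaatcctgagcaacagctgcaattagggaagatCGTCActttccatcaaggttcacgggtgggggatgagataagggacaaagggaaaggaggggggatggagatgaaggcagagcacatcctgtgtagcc
Cck and Nts had TGACG on the opposite strand, read here as CGTCA, at positions -47 and -166 from the start, and Calca had it on the gene's strand at -65. Nts alone of the 3 held TGANTCA, at -207. Over called peptide genes with a window, 3 of the 4 higher in VPM and 6 of the 8 higher in MGv held TGACG within 250 bases, Gal, Nppa and Pam being those without it, against 19.8% of all 27025 genes in the table. TGANTCA was found in 1 of these 12 and in 7.82% of all genes. Genes of both directions thus held the same letters, which is a match of letters and no evidence of binding.

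Early response genes, which neurons and other cells switch on within minutes of activity or tissue dissociation, were weighted to MGv. All 22 listed genes were tested, 10 were called higher in MGv (6 without MGv replicate 1) and 1 higher in VPM, Egr2, which was not called without MGv replicate 1 or 3. The share was 45.5% in MGv, against 8.56% of all genes, and 4.55% in VPM, against 10.4%. The median log2 fold change of the list was -0.86, and its summed level was 687 to 1080 CPM in VPM and 1220 to 1570 CPM in MGv. Fos had 100.2, 70.5, 75 and 65.3 CPM in VPM and 296, 326 and 223 CPM in MGv (log2 fold change -1.86 ± 0.21, adjusted p = 6.88e-05). Fosb, its close relative, had 1.48, 2.47, 4.16 and 2.14 CPM in VPM and 34.6, 24.2 and 56.6 CPM in MGv (log2 fold change -3.92 ± 0.42, adjusted p = 3.89e-05). Arc, which encodes a cytoskeletal protein of recently active synapses, had 0.788, 2.03, 0.93 and 1.14 CPM in VPM and 12.8, 13.8 and 11.2 CPM in MGv (log2 fold change -3.35 ± 0.57, adjusted p = 0.00157). None of the 3 overlapped between nuclei. Npas4, a neuron-specific factor induced by calcium entry, had 6.44, 3.68, 7.69 and 2 CPM in VPM and 46.6, 21.6 and 15.6 CPM in MGv, with MGv replicate 1 far above the other MGv libraries, and its call (log2 fold change -2.5 ± 0.72, adjusted p = 0.0351) was lost without that library. Junb, Egr1, Dusp1, Jun, Nr4a3 and Egr4 made up the 10. Activity in the animal and a response to dissection and dissociation cannot be told apart in these libraries.

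**Figure D3:**
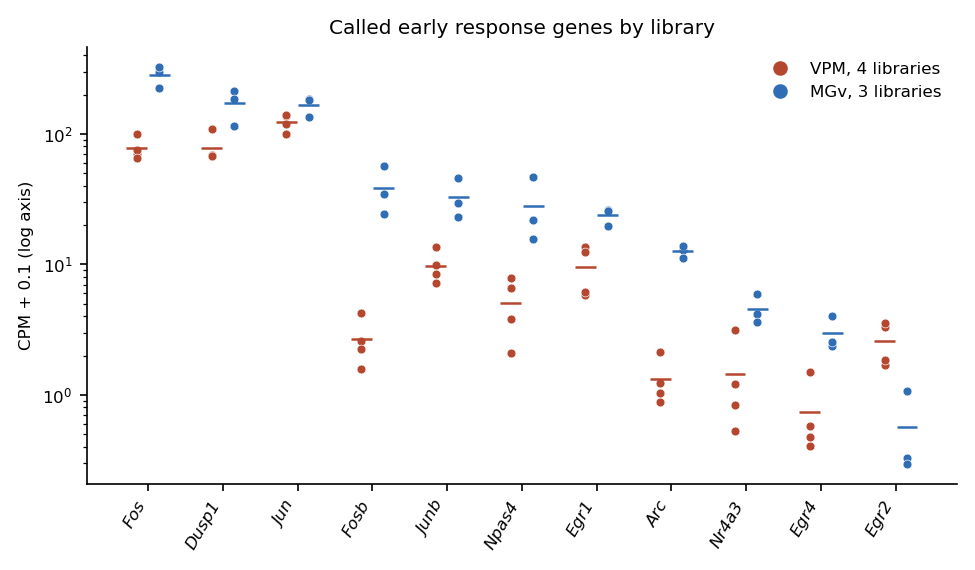
CPM plus 0.1 on a log axis for the 11 called early response genes, ordered by their mean in MGv, each dot 1 library, red for VPM and blue for MGv, with a line at the mean. The MGv dots lie above the VPM dots for Fos, Fosb and Arc, whereas the order is turned for Egr2.

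The Fos and Fosb windows are printed with the same marks, since both genes were called higher in MGv.
Fos, chr12:85473640-85473889: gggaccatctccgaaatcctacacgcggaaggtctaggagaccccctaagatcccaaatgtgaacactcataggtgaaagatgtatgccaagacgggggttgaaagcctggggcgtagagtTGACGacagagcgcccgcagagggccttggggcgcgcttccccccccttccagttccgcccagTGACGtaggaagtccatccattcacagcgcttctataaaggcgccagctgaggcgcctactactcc
Fosb, chr7:19310052-19310295: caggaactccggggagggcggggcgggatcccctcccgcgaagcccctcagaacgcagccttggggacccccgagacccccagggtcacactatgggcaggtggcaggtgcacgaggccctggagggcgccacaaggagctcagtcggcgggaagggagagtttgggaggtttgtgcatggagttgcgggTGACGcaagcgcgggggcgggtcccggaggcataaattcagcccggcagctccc
Fos held TGACG at -129 and -66 and Fosb held it at -60, both on the gene's strand. Of the 8 genes of the 10 with a window, 7 held TGACG, all but Jun, and 0 held TGANTCA. Over all genes with a window, 19.8% held TGACG and 7.82% held TGANTCA. Egr2, called in the other direction, held TGACG too. The genes printed were chosen with their values and matches known.

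Transcription factor genes were called in both directions. Of 53 homeobox and LIM genes, 37 were tested, with 7 called higher in VPM and 11 higher in MGv and a median log2 fold change of -0.46. These were 18.9% and 29.7% of those tested, against 10.4% and 8.56% of all genes. The 7 became 4 without MGv replicate 3 or without VPM replicate 2. Prox1, a homeobox factor of differentiating neurons, had 109, 137, 165 and 140.0 CPM in VPM and 13.2, 12.4 and 4.08 CPM in MGv (log2 fold change 3.79 ± 0.36, adjusted p = 1.67e-05). Lmo4, a LIM-only cofactor, had 93, 67.8, 66.2 and 62.9 CPM in VPM and 11, 8.43 and 14 CPM in MGv (log2 fold change 2.7 ± 0.21, adjusted p = 2.76e-06). Zeb1, a repressor of epithelial genes, had 29.4, 25.7, 22.8 and 30.1 CPM in VPM and 3.76, 3.16 and 9.72 CPM in MGv (log2 fold change 2.3 ± 0.33, adjusted p = 0.000394). These VPM genes did not overlap with MGv in any library. Lhx2, a LIM homeobox factor that controls guidance genes in thalamic neurons, had 4.73, 7.05, 12.7 and 5.56 CPM in VPM and 81.3, 58.8 and 91.2 CPM in MGv (log2 fold change -3.37 ± 0.33, adjusted p = 2.05e-05). Lhx2 thus joined Gbx2 on the MGv side, as did Pbx3, with 3.89, 3.9, 0.62 and 3.76 CPM in VPM and 12.6, 12.4 and 25.2 CPM in MGv (log2 fold change -2.44 ± 0.45, adjusted p = 0.00276). Tshz1, a zinc-finger homeobox gene, had 94.9, 72.9, 34.9 and 69.5 CPM in VPM and 234, 228 and 179.5 CPM in MGv, the groups being clearly apart (log2 fold change -1.65 ± 0.34, adjusted p = 0.00604).

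Among 54 zinc finger, HMG-box and forkhead genes, 47 were tested, 9 called higher in VPM and 12 higher in MGv. Their shares of those tested were 19.1% and 25.5%, against 10.4% and 8.56% of all genes. Bcl11a, a zinc finger repressor of cortical and thalamic neurons, had 101, 109.7, 58.6 and 106 CPM in VPM and 462, 399.8 and 345 CPM in MGv (log2 fold change -2.1 ± 0.27, adjusted p = 0.000148). Tox2 and Tox, HMG-box factors, were also higher in MGv (log2 fold changes -1.49 ± 0.20 and -1.16 ± 0.15, adjusted p = 0.000247 and 0.000207). Foxp1, a forkhead repressor, had 99.5, 83.7, 58.1 and 73.5 CPM in VPM and 20.7, 24.8 and 28.3 CPM in MGv (log2 fold change 1.68 ± 0.22, adjusted p = 0.00017). Its relative Foxp2 was called in the opposite direction, higher in MGv. Zic2, Zic4 and Zic5, zinc finger genes of the Zic family, were called higher in VPM. Sp9 was low in VPM, at 4.08, 3.25, 3.78 and 11.3 CPM, where replicate 4 exceeded the others, against 26.8, 13 and 30.3 CPM in MGv (log2 fold change -2.06 ± 0.49, adjusted p = 0.0133).

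Among 68 bHLH, nuclear receptor and other factors, 54 were tested, 12 called higher in VPM and 10 higher in MGv (5 without MGv replicate 1 and 6 without MGv replicate 2). Their shares of those tested were 22.2% and 18.5%, against 10.4% and 8.56% of all genes. Myc had 49.5, 46.6, 48.9 and 53.4 CPM in VPM and 14.2, 12.5 and 4.76 CPM in MGv (log2 fold change 2.23 ± 0.29, adjusted p = 0.0002), and Mycn was called in this direction as well. Nr2f1, an orphan nuclear receptor that patterns cortical areas and is also made in thalamus, had 268, 272, 367 and 298 CPM in VPM and 86.6, 82.9 and 86.5 CPM in MGv (log2 fold change 1.82 ± 0.14, adjusted p = 2.85e-06). Hlf, a PAR bZIP factor of circadian output, had a log2 fold change of 2.19 ± 0.40 (adjusted p = 0.00261), while Dbp of the same family was higher in MGv (log2 fold change -1.19 ± 0.35, adjusted p = 0.0367) unless MGv replicate 1 was left out. Id1, an inhibitor of bHLH factors, reached 7.44, 6.76 and 3.4 CPM in MGv against 1.39, 1.25, 1.12 and 1.76 CPM in VPM (log2 fold change -2.08 ± 0.44, adjusted p = 0.00705). Of 22 retinoic acid genes, 15 were tested and 1 was called in each direction, Rara in VPM and Crabp2 in MGv. Each was 6.67% of those tested, below the shares of all genes. The call of Crabp2, a retinoic acid carrier with 113, 169.6, 49.3 and 159.9 CPM in VPM and 585, 715 and 413 CPM in MGv, was lost without any 1 of the 7 libraries although its groups did not overlap (log2 fold change -2.21 ± 0.82, adjusted p = 0.0946). That of Rara was lost without MGv replicate 1 or 3 or VPM replicate 2.

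**Figure D4:**
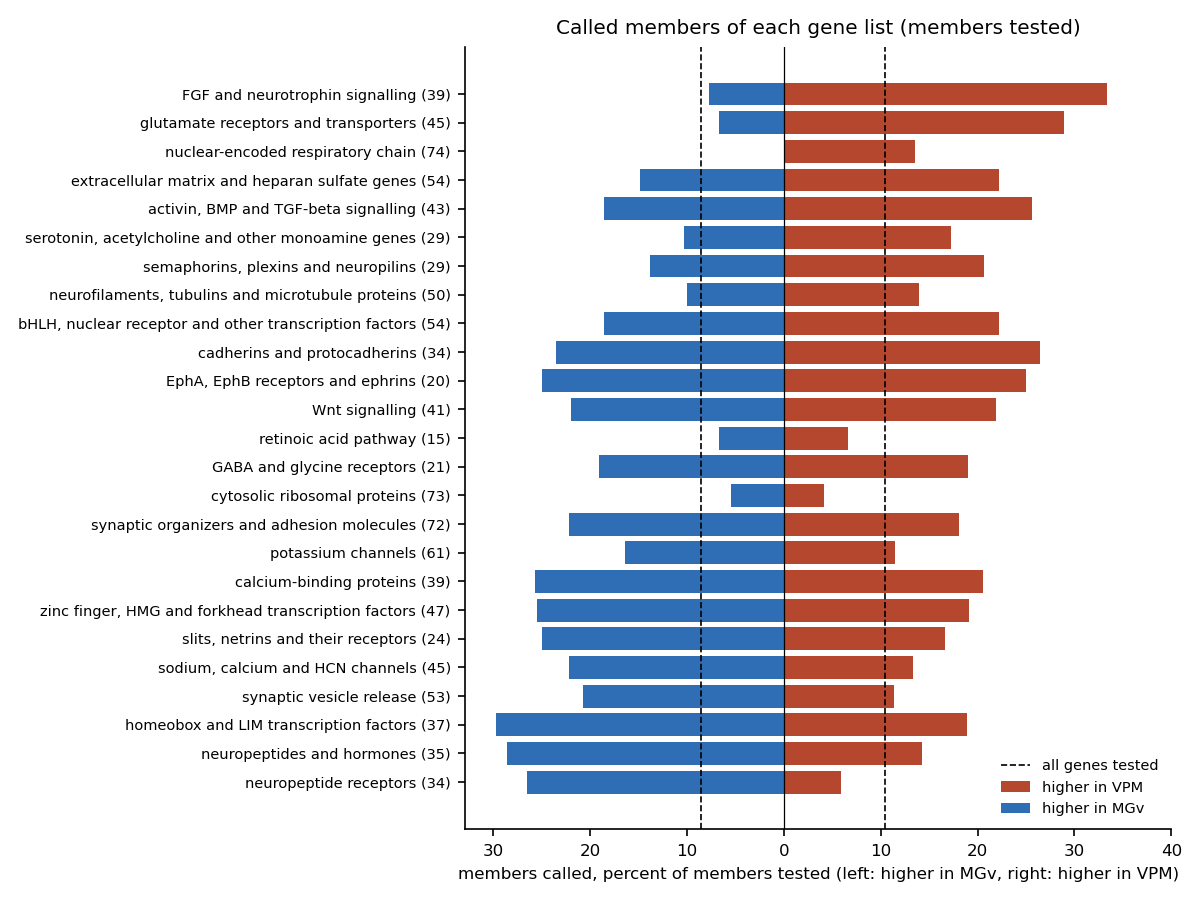
Percent of the tested members of each gene list that were called higher in MGv (blue, to the left) and higher in VPM (red, to the right), with the number of members tested in brackets and dashed lines at the shares over all genes tested, 8.56% and 10.4%. FGF and neurotrophin genes and glutamate receptor genes lean to VPM, and neuropeptide receptors, neuropeptides and homeobox genes lean to MGv.

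Axon guidance genes were called in both directions. Of 22 Eph receptors and ephrins, 20 were tested, and the 5 called higher in VPM were all EphA receptors (Epha7, Epha1, Epha3, Epha5 and Epha4), while the 5 called higher in MGv included the ephrin-B ligands Efnb1, Efnb2 and Efnb3 with Ephb2 and Epha8. Epha7 had 225, 239, 173 and 231 CPM in VPM and 29.98, 30.7 and 33.5 CPM in MGv (log2 fold change 2.79 ± 0.18, adjusted p = 7.18e-07). Epha3 had 59.5, 66.3, 49.7 and 66.5 CPM in VPM and 27.9, 25.6 and 25.8 CPM in MGv (log2 fold change 1.2 ± 0.15, adjusted p = 0.000131). Epha5 and Epha4 had log2 fold changes of 1.18 ± 0.21 and 1.1 ± 0.20 (adjusted p = 0.00215 and 0.00227). None of these 4 overlapped between the nuclei, as was the case for most called genes. EphA receptors of thalamic axons are known to respond to graded ephrin-A in the cortex. Efnb3 had 152, 132, 103 and 128 CPM in VPM and 255, 242 and 246 CPM in MGv (log2 fold change -0.94 ± 0.14, adjusted p = 0.000438). Ephb2 had 35, 34.7, 22.5 and 37.4 CPM in VPM and 57, 57.8 and 71 CPM in MGv (log2 fold change -0.93 ± 0.19, adjusted p = 0.00476). Epha8, the only EphA receptor called higher in MGv, lost its call without any MGv library or VPM replicate 2 (log2 fold change -0.70 ± 0.24, adjusted p = 0.0704).

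Of 31 semaphorin, plexin and neuropilin genes, 29 were tested, 6 called higher in VPM and 4 higher in MGv (0 without MGv replicate 3 and 2 without VPM replicate 2). Plxna2, a semaphorin receptor, had 71.3, 57.2, 31.4 and 45.5 CPM in VPM and 4.06, 2.19 and 1.75 CPM in MGv (log2 fold change 4.25 ± 0.59, adjusted p = 0.000325). Plxna4 had 43.1, 40.9, 26.5 and 35.5 CPM in VPM and 1.65, 3.95 and 5.35 CPM in MGv (log2 fold change 3.34 ± 0.35, adjusted p = 3.27e-05). Both were several times higher in each VPM library than in any MGv library. Sema7a, a membrane-anchored semaphorin that promotes axon growth, had log2 fold change 1.66 ± 0.31 (adjusted p = 0.00302), and Sema3e, higher in VPM (log2 fold change 1.82 ± 0.51, adjusted p = 0.0308), overlapped in VPM replicate 3 and lost its call without MGv replicate 1. Of 30 slit and netrin pathway genes, 24 were tested, 4 called higher in VPM and 6 higher in MGv (3 without MGv replicate 3). The FLRT genes, which act as adhesion molecules and as ligands of Unc5 receptors, split. Flrt2 had 34.3, 32.9, 19.97 and 29.96 CPM in VPM and 2.25, 3.95 and 10.3 CPM in MGv (log2 fold change 2.43 ± 0.41, adjusted p = 0.0015). Flrt3 had 11.5, 11.7, 13 and 11.2 CPM in VPM and 47.3, 52.2 and 53.9 CPM in MGv, the reverse order (log2 fold change -2.11 ± 0.20, adjusted p = 1.47e-05). The Unc5 receptors split as well, Unc5a toward VPM (log2 fold change 1.18 ± 0.34, adjusted p = 0.034, lost without MGv replicate 2) and Unc5c toward MGv (log2 fold change -0.97 ± 0.22, adjusted p = 0.0114).

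**Figure D5:**
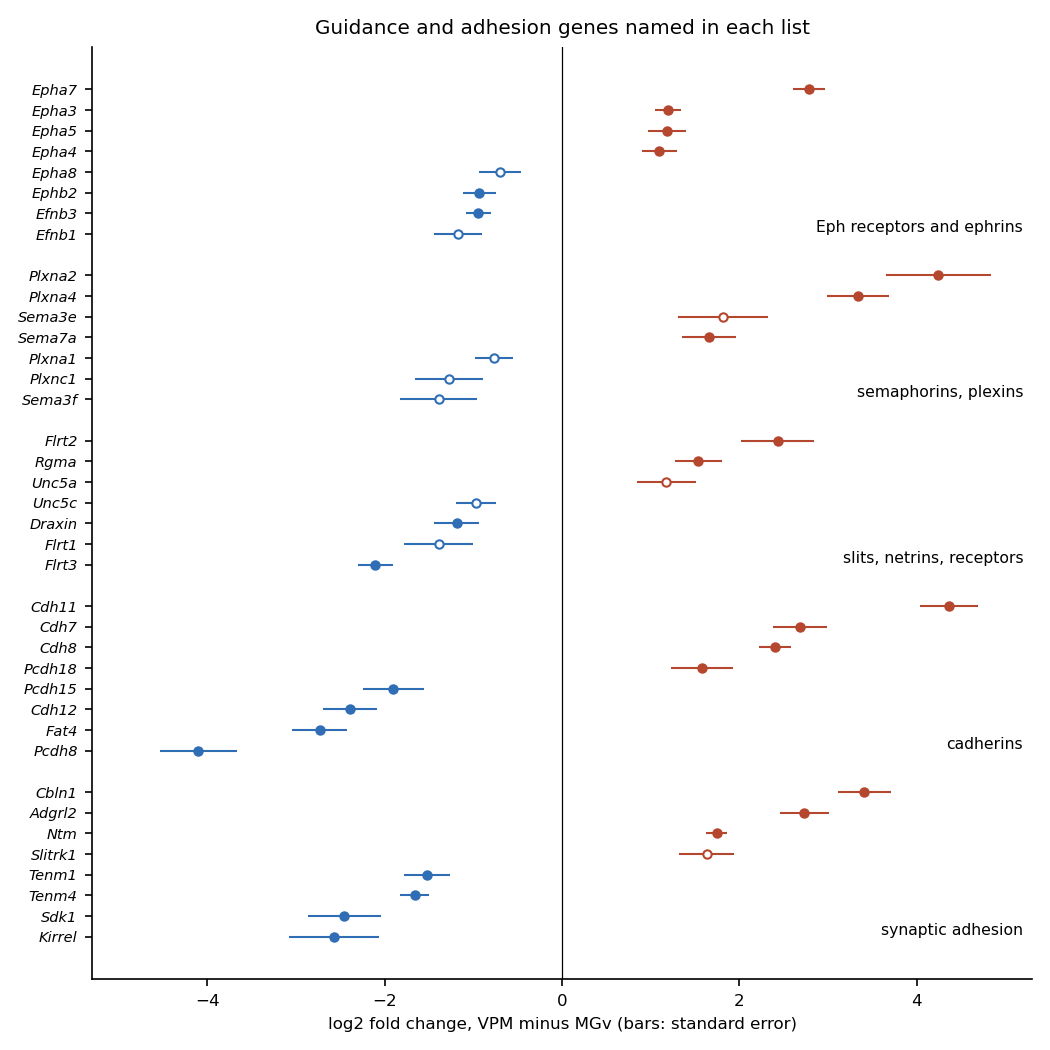
Log2 fold changes, VPM minus MGv, with their standard errors for the called genes named in 5 guidance and adhesion lists, red toward VPM and blue toward MGv. Filled points were called in each alternative that tested them and open points were not called in at least 1, and every EphA receptor plotted but Epha8 lies to the right of 0.

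Cadherins, which bind cells of like type, were called in both directions. Of 39 cadherins and protocadherins, 34 were tested, 9 called higher in VPM and 8 higher in MGv (5 without MGv replicate 3 or without VPM replicate 3). Cdh11 had 112, 98.1, 61 and 99.5 CPM in VPM and 5.26, 5.88 and 2.24 CPM in MGv (log2 fold change 4.36 ± 0.33, adjusted p = 2.43e-06). Cdh8 had 187, 204, 226 and 204 CPM in VPM and 36.2, 37 and 43.2 CPM in MGv (log2 fold change 2.4 ± 0.18, adjusted p = 2.07e-06). Cdh7 was higher in VPM (log2 fold change 2.69 ± 0.31, adjusted p = 6.70e-05). In MGv the counterpart was Cdh12, with 27.9, 25.1, 33.4 and 17.6 CPM in VPM and 132, 139 and 137 CPM in MGv (log2 fold change -2.39 ± 0.30, adjusted p = 0.00015). Fat4, an atypical cadherin of the Hippo pathway, and Pcdh15, a cadherin of hair cell tip links, were low in both nuclei but higher in MGv (log2 fold changes -2.73 ± 0.31 and -1.9 ± 0.35, adjusted p = 6.70e-05 and 0.00263).

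The list of synaptic organizers and adhesion molecules had 72 of 75 genes tested, 13 called higher in VPM and 16 higher in MGv. Cbln1, a secreted organizer that links neurexins to glutamate delta receptors, had 29.4, 29, 33.1 and 17.7 CPM in VPM and 3.23, 2.37 and 2.04 CPM in MGv (log2 fold change 3.41 ± 0.30, adjusted p = 8.75e-06). Adgrl2, the latrophilin-2 receptor, had 113, 99.1, 56 and 95.7 CPM in VPM and 11.7, 13.7 and 15.8 CPM in MGv (log2 fold change 2.73 ± 0.28, adjusted p = 2.87e-05). All 4 teneurins, the ligands of latrophilins, were called in the opposite direction. Tenm1 had 225, 201, 110.5 and 151 CPM in VPM and 418, 511 and 554 CPM in MGv (log2 fold change -1.52 ± 0.26, adjusted p = 0.00163). Tenm4 had 37.5, 29.1, 30.5 and 36.5 CPM in VPM and 104, 93.9 and 119.7 CPM in MGv (log2 fold change -1.66 ± 0.16, adjusted p = 2.05e-05). Sdk1, a homophilic adhesion molecule of layered circuits, had 1.95, 2.86, 1.24 and 1.85 CPM in VPM and 11.8, 10.4 and 10.6 CPM in MGv (log2 fold change -2.46 ± 0.41, adjusted p = 0.0014). VPM and MGv were apart in all of these, and Kirrel was likewise higher in MGv (log2 fold change -2.57 ± 0.51, adjusted p = 0.00456).

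Growth factor genes were called mostly on the VPM side. Of 53 FGF, neurotrophin and related genes, 39 were tested, 13 called higher in VPM (33.3% of those tested, against 10.4% of all genes) and 3 higher in MGv. Beside Ntf3, the neurotrophin receptor Ngfr was higher in VPM, at 6.07, 9.87, 2.73 and 10.9 CPM in VPM and 0.902, 1.58 and 0.972 CPM in MGv (log2 fold change 2.68 ± 0.49, adjusted p = 0.00257). Dusp6, a phosphatase induced by the ERK pathway it restrains, had 126, 109, 97.8 and 95.1 CPM in VPM and 24.9, 37.6 and 36.1 CPM in MGv (log2 fold change 1.7 ± 0.18, adjusted p = 3.17e-05). Igfbp5, which binds insulin-like growth factors, had 149, 124, 67.5 and 103 CPM in VPM and 31, 22.6 and 43.9 CPM in MGv (log2 fold change 1.77 ± 0.31, adjusted p = 0.00215). Each was higher in all VPM libraries, while its relative Igfbp4 was higher in all MGv libraries (log2 fold change -0.77 ± 0.16, adjusted p = 0.00519).

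Of 49 activin, BMP and TGF-beta genes, 43 were tested, 11 called higher in VPM and 8 higher in MGv. Inhba, the activin A subunit, had 52.1, 37.2, 17.3 and 23.7 CPM in VPM and 0.225, 0.175 and 1.75 CPM in MGv (23 reads in MGv, log2 fold change 5.57 ± 0.78, adjusted p = 0.000329). Fst, which encodes the activin antagonist follistatin, was at 7.83, 7.66, 2.67 and 3 CPM in VPM and at 0.30, 0.351 and 0 CPM in MGv, 8 reads in all (log2 fold change 4.52 ± 1.02, adjusted p = 0.0103). Nog, which encodes the BMP antagonist noggin, had 33.7, 46.6, 46 and 77.8 CPM in VPM and 7.89, 2.37 and 1.36 CPM in MGv (log2 fold change 3.69 ± 0.61, adjusted p = 0.00136). Ligand and antagonist were thus both higher in VPM, although VPM replicates 3 and 4 were lower than 1 and 2 for Inhba and Fst. Bmpr1b, a BMP receptor, had 1.39, 1.34, 1.8 and 1.85 CPM in VPM and 8.87, 7.37 and 9.72 CPM in MGv (log2 fold change -2.44 ± 0.31, adjusted p = 0.000176). Sostdc1, a secreted BMP and Wnt antagonist, was higher in MGv (log2 fold change -2.83 ± 0.46, adjusted p = 0.00123).

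Wnt pathway genes were divided, with 41 of 56 tested, 9 called higher in VPM and 9 higher in MGv (5 without MGv replicate 3 and 3 without VPM replicate 2). The ligands Wnt9b and Wnt9a were higher in VPM (log2 fold changes 1.78 ± 0.34 and 1.59 ± 0.28, adjusted p = 0.00348 and 0.0022). Wnt9b was very even in VPM, at 16.1, 16.3, 16.4 and 16.3 CPM, against 7.14, 2.11 and 4.86 CPM in MGv. In MGv, Dkk2, a Wnt antagonist, had 0.51, 0.692, 0.62 and 0.38 CPM in VPM and 9.99, 11.2 and 6.12 CPM in MGv (log2 fold change -4.03 ± 0.91, adjusted p = 0.0104). Nkd1, a feedback inhibitor that Wnt signalling induces, had 18.4, 20.6, 19.1 and 18.4 CPM in VPM and 63.4, 64.5 and 50.1 CPM in MGv (log2 fold change -1.63 ± 0.17, adjusted p = 3.33e-05), and the feedback gene Axin2 was called in this direction too.

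Transmitter receptor genes were called in both directions. Of 47 glutamate receptor, transporter and scaffold genes, 45 were tested, 13 called higher in VPM (28.9% of those tested, 8 genes without MGv replicate 1) and 3 higher in MGv. Gria1, the GluA1 subunit of AMPA receptors, had 39.95, 39.9, 30.2 and 35.2 CPM in VPM and 2.71, 4.3 and 8.94 CPM in MGv (log2 fold change 2.79 ± 0.32, adjusted p = 6.70e-05). Cnih3, an AMPA receptor auxiliary protein, had 37.9, 35.6, 29.6 and 31.2 CPM in VPM and 2.71, 5.62 and 10.8 CPM in MGv (log2 fold change 2.41 ± 0.45, adjusted p = 0.00287). Within MGv both were lowest in replicate 1 and highest in replicate 3, which did not reach VPM. Grm2, a presynaptic metabotropic receptor, had 26.9, 30.03, 19.2 and 26.5 CPM in VPM and 48.6, 57.1 and 48.4 CPM in MGv (log2 fold change -1.0 ± 0.17, adjusted p = 0.00164). Dlg1, the scaffold SAP97, was higher in MGv as well (log2 fold change -1.63 ± 0.26, adjusted p = 0.000852). The vesicular transporter Slc17a6, which gives these neurons their glutamatergic phenotype, had 592, 642, 414 and 517 CPM in VPM and 278, 294 and 442 CPM in MGv, overlapped through MGv replicate 3 and VPM replicate 3, and lost its call without MGv replicate 1 (log2 fold change 0.68 ± 0.18, adjusted p = 0.0256).

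Of 25 GABA and glycine receptor genes, 21 were tested, 4 called higher in VPM and 4 higher in MGv (2 without MGv replicate 1, MGv replicate 2 or VPM replicate 4). Gabra4 had 44.7, 52.2, 53.6 and 42.6 CPM in VPM and 9.24, 17 and 18.8 CPM in MGv (log2 fold change 1.69 ± 0.26, adjusted p = 0.000741). Gabra5, another alpha subunit, had 100.4, 83.2, 67.9 and 78.3 CPM in VPM and 157, 139 and 118 CPM in MGv, in the opposite order (log2 fold change -0.74 ± 0.15, adjusted p = 0.00493). Glra2, the glycine receptor subunit of immature neurons, had 335, 331, 351 and 329 CPM in VPM and 186, 197 and 122 CPM in MGv (log2 fold change 1.0 ± 0.15, adjusted p = 0.000674), and its partner Glrb was higher in VPM too (log2 fold change 1.02 ± 0.17, adjusted p = 0.00154). Of 48 serotonin, acetylcholine and other monoamine genes, 29 were tested, 5 called higher in VPM and 3 higher in MGv (1 without MGv replicate 3 and 5 without VPM replicate 1). Those counts were 17.2% and 10.3% of the genes tested, the latter near the 8.56% of all genes. Besides Slc6a4, the VPM genes included Slc18a2, the vesicular monoamine transporter, at 370.3, 368, 206 and 388 CPM in VPM and 99.8, 140.3 and 82.7 CPM in MGv (log2 fold change 1.63 ± 0.32, adjusted p = 0.00451). They also included the serotonin receptor genes Htr1b, at 50.5, 56.1, 22.1 and 50.9 CPM in VPM and 5.03, 8.34 and 19.6 CPM in MGv (log2 fold change 2.04 ± 0.41, adjusted p = 0.0053), and Htr7 (log2 fold change 1.67 ± 0.23, adjusted p = 0.000329). VPM replicate 3 was the lowest VPM library for all 4 of these genes, and for Htr1b and Slc6a4 it came close to MGv replicate 3. Adra1b, an adrenergic receptor, was higher in MGv (log2 fold change -1.76 ± 0.32, adjusted p = 0.00252).

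Ion channel genes were likewise called in both directions. Of 69 potassium channel genes, 61 were tested, 7 called higher in VPM and 10 higher in MGv (5 without MGv replicate 1 and 6 without MGv replicate 3 or VPM replicate 2). These were 11.5% and 16.4% of those tested, against 10.4% and 8.56% of all genes, so the VPM share was near the background. Kcna1, a delayed rectifier of axons, had 55.9, 36.6, 20.3 and 44.9 CPM in VPM and 5.18, 5.09 and 5.93 CPM in MGv (log2 fold change 2.87 ± 0.37, adjusted p = 0.000172). Kcnn1, a calcium-activated SK channel, had 61, 51.7, 30.6 and 47.5 CPM in VPM and 14.5, 17.5 and 14.2 CPM in MGv (log2 fold change 1.63 ± 0.26, adjusted p = 0.000842). Kcnip3, a calcium sensor that binds Kv4 channels, had 2.36, 1.9, 3.41 and 2.76 CPM in VPM and 17.5, 18.7 and 15.6 CPM in MGv (log2 fold change -2.73 ± 0.22, adjusted p = 3.39e-06). Kcnc2, a fast Kv3 channel, was higher in MGv (log2 fold change -1.1 ± 0.21, adjusted p = 0.00325). Of 46 sodium, calcium, HCN and TRP channel genes, 45 were tested, 6 called higher in VPM and 10 higher in MGv (5 without MGv replicate 2 and 4 without MGv replicate 3). For this list the shares were 13.3% and 22.2% of those tested. Cacna2d3, an auxiliary calcium channel subunit, had 76.2, 67.1, 38.8 and 70.2 CPM in VPM and 18.6, 21.1 and 23 CPM in MGv (log2 fold change 1.59 ± 0.25, adjusted p = 0.000831). Cacna1i, a T-type channel subunit of the kind that drives thalamic bursts, was higher in MGv (log2 fold change -1.4 ± 0.25, adjusted p = 0.00234).

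Calcium-binding and calmodulin-related genes were called in both directions, with 39 of 41 tested, 8 called higher in VPM and 10 higher in MGv. Vsnl1, the calcium sensor visinin-like 1, had 275, 246, 170.5 and 225 CPM in VPM and 16.4, 20.2 and 24.7 CPM in MGv (log2 fold change 3.49 ± 0.26, adjusted p = 2.16e-06). Camk4, a nuclear calmodulin kinase, had 837, 676, 487 and 576 CPM in VPM and 154, 180.0 and 183 CPM in MGv (log2 fold change 1.9 ± 0.19, adjusted p = 2.20e-05). Calb1, which encodes calbindin, had 27.7, 34.1, 33.5 and 26.4 CPM in VPM and 133, 182 and 158 CPM in MGv (log2 fold change -2.37 ± 0.40, adjusted p = 0.00159). MGv thus held more of both calbindin and calretinin RNA, while VPM held more Pcp4 and Vsnl1. Camk2a, the alpha subunit of the synaptic kinase, had 14.8, 12.3, 8.12 and 11.3 CPM in VPM and 36.6, 38 and 53.5 CPM in MGv (log2 fold change -1.87 ± 0.23, adjusted p = 0.000115). Nrgn, which encodes the calmodulin-binding protein neurogranin, had 0.464, 0.303, 0 and 0.571 CPM in VPM and 8.49, 8.34 and 11.2 CPM in MGv, with 29 reads in VPM and 323 in MGv (log2 fold change -4.73 ± 0.72, adjusted p = 0.000686).

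Genes of vesicle release had 53 of 56 tested, 6 called higher in VPM (11 without VPM replicate 3) and 11 higher in MGv (6 without MGv replicate 3). The VPM share, 11.3% of those tested, was near the 10.4% of all genes, and the MGv share was 20.8%, against 8.56%. Cplx1, a complexin that regulates vesicle fusion, had 222, 208, 145 and 176 CPM in VPM and 100.5, 109 and 96.4 CPM in MGv (log2 fold change 0.88 ± 0.15, adjusted p = 0.00166). Doc2b, a calcium sensor of spontaneous release, had 0.834, 2.42, 0 and 1.52 CPM in VPM and 14.5, 15.7 and 13.3 CPM in MGv (log2 fold change -3.56 ± 0.79, adjusted p = 0.00881). Syt10, a synaptotagmin, had 0.742, 0.779, 1.92 and 0.428 CPM in VPM and 8.19, 6.76 and 10.3 CPM in MGv (log2 fold change -3.14 ± 0.46, adjusted p = 0.00052). Rab3b, a small G protein of vesicles, had 57, 41, 58.7 and 49 CPM in VPM and 153, 184 and 157 CPM in MGv (log2 fold change -1.68 ± 0.38, adjusted p = 0.0107). None of these overlapped, as was the case for most called genes.

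Of 51 cytoskeletal genes, 50 were tested, 7 called higher in VPM (4 without VPM replicate 2) and 5 higher in MGv (3 without MGv replicate 2 and 2 without MGv replicate 3). The VPM share was 14.0% of those tested, against 10.4% of all genes, and the MGv share was near the 8.56% of all genes. The neurofilament genes Nefl and Nefm, which overlap each other in part of their exons, were both higher in VPM. Nefl, the light chain, had 2413, 2380, 1785 and 1987 CPM in VPM and 793, 793 and 698 CPM in MGv (log2 fold change 1.49 ± 0.16, adjusted p = 4.06e-05). Nefm, the medium chain, had 1476, 1428, 816 and 1138 CPM in VPM and 276, 254 and 327 CPM in MGv (log2 fold change 2.09 ± 0.27, adjusted p = 0.000155). In MGv, Stmn1, a tubulin-sequestering protein of growing axons, had 94.4, 96.4, 131 and 87 CPM in VPM and 197, 194 and 162 CPM in MGv (log2 fold change -0.85 ± 0.16, adjusted p = 0.00265).

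Extracellular matrix and heparan sulfate genes had 54 of 61 tested, 12 called higher in VPM and 8 higher in MGv. Besides Tnr, MGv was higher for Dab1, the intracellular adaptor of Reelin receptors, with 19.5, 36.8, 18.1 and 31.2 CPM in VPM and 374, 314 and 338 CPM in MGv (log2 fold change -3.69 ± 0.22, adjusted p = 4.73e-07). Sulf2, a sulfatase that edits heparan sulfate, had 12.1, 11, 4.9 and 9.99 CPM in VPM and 73.1, 51.1 and 90.2 CPM in MGv (log2 fold change -2.91 ± 0.31, adjusted p = 3.89e-05). Spon1, the secreted F-spondin, had 10.1, 12.6, 16.4 and 18.1 CPM in VPM and 82, 69.9 and 65 CPM in MGv (log2 fold change -2.34 ± 0.19, adjusted p = 3.63e-06). VPM was higher for Vcan, the proteoglycan versican, with 35.3, 28.6, 24.2 and 25 CPM in VPM and 2.25, 2.63 and 4.86 CPM in MGv (log2 fold change 3.13 ± 0.42, adjusted p = 0.000255). The proteoglycans Spock1 and Spock3 were higher in VPM too (log2 fold changes 1.31 ± 0.27 and 1.21 ± 0.19, adjusted p = 0.00582 and 0.000732). Tenascins thus took opposite sides, as Tnc was higher in VPM, at 6.3, 6.75, 4.03 and 7.89 CPM in VPM and 0.977, 2.72 and 0.194 CPM in MGv (log2 fold change 2.26 ± 0.61, adjusted p = 0.0255).

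Of 74 nuclear-encoded respiratory chain genes, all tested, 70 had positive log2 fold changes with a median of 0.45, but only 10 were called higher in VPM (13.5% of those tested) and 0 higher in MGv by edgeR, DESeq2 or limma, with 0 at an unadjusted p under 0.05. The count of 10, from edgeR, followed single libraries, being 3 without MGv replicate 1 or MGv replicate 3, 6 without VPM replicate 2, 4 without VPM replicate 3 (then with 2 higher in MGv) and 32 without VPM replicate 4. It moved with the method as well, to 17 by DESeq2, 26 with the replicate block and 5 with only the VPM and MGv libraries. Across the alternatives and stricter thresholds it was 0 to 39. Ndufa1, a complex I subunit, had 556, 653, 944 and 509.6 CPM in VPM and 347, 435 and 271 CPM in MGv, and Cox5a, a cytochrome oxidase subunit, had 1163, 1275, 1979 and 969 CPM in VPM and 749.8, 852 and 750.4 CPM in MGv. VPM replicate 3, the library with the high mitochondrial share, was the highest in both (log2 fold changes 0.92 ± 0.23 and 0.78 ± 0.20, adjusted p = 0.0173 and 0.0225), and its part in the list was not tested beyond leaving it out. Of 74 ribosomal protein genes, 73 were tested, 3 called higher in VPM (0 without MGv replicate 1, MGv replicate 3 or VPM replicate 3, 5 without MGv replicate 2 and 8 without VPM replicate 4) and 4 higher in MGv (7 without VPM replicate 3, 2 without MGv replicate 2, VPM replicate 1 or VPM replicate 2, and 1 without MGv replicate 3). These shares were below the background of 10.4% and 8.56%, and since ribosomal genes have many near-identical copies in the genome, their counts are uncertain. By edgeR 0 of 6 sex-linked genes tested were called, by DESeq2 and limma also 0, with 0 at an unadjusted p under 0.05.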

How the data were processed

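RNA was measured by sequencing in sorted thalamic neurons of newborn mice. The SMARTer Ultra Low kit v4 served for cDNA, read as single 50-base reads, per the labels. The submitters' notes name FastQC 0.11.7, Trim Galore 0.6.1, cutadapt 2.3, STAR 2.7.0d, SAMtools 1.9 and featureCounts of Subread 1.6.4, with the mm10 genome and, in the methods, an Ensembl annotation. The authors deposited raw counts per gene, 1 file per library, with no normalization. The strand setting and the treatment of reads that map to several places are not given in the sources used here, so genes with near-identical copies, and genes that overlap another on the opposite strand, are uncertain.

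Of 54752 gene identifiers, 54723 matched GENCODE M21 (GRCm38), which gave names, coordinates and exon overlaps. Groups came from the sample titles. Genes were filtered with filterByExpr, scaled with TMM and tested with edgeR 4.0.16 in R 4.3.3 by quasi-likelihood over 11 libraries, with the Benjamini-Hochberg adjustment and a threshold of 0.1. Values are CPM scaled by TMM, and fold changes are VPM minus MGv from the edgeR fit at its default settings. A prior count of 2 was used only for the log CPM behind the correlations between libraries. Each ± is the standard error, computed as the absolute log2 fold change over the square root of the F statistic. In counts simulated for this comparison over 15500 genes, changes were placed in 200 genes with a mean over 1 CPM. Of these changes, 70% of the 2-fold and 94% of the 4-fold were recovered, and 11.8% of calls were of unchanged genes. No simulated library was made to stand apart, and recovery of changes in genes with lower counts was not tested. The spread was set from its trend over expression level, not gene by gene. The 200 changed genes were a smaller share than the 19.0% called in the data, so the simulated rates need not hold for this comparison. Each library pooled 4 brains, and no source says that pools came from separate litters, so p-values measure the spread between these libraries, which may be technical. The count floor covers counting error only. DESeq2 1.42.0, limma 3.58.1, other scalings and filters, thinning to 10175653 counts, a replicate block and libraries left out were alternatives. Correlations of deviations between same-numbered VPM and MGv libraries were not positive, and the numbers were not used to pair them. What the numbers share is not given in the sources used here.

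The comparison, the 6 markers and the gene lists were chosen with earlier results of these data known. Named genes were the markers, the 12 called protein-coding genes with the largest fold change in each direction (at least 10 CPM in the higher nucleus, no overlap of libraries), the 6 with the largest difference in mean CPM, and for each list up to 4 called members in each direction with at least 5 CPM. Other called members are named without values. A few genes that the rule names are not reported here, and are left out of the screen for VPM libraries that lie apart. No protein sequence was used here.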

Additional observations from a re-analysis of the deposited data

Results flagged for a closer look

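In 11 of 210 sets of 4 VPM values, 1 library lay apart, the ratio of its gap to the nearest other over the whole range passing the 95% limit of Dixon's test, as chance alone makes happen in about 1 set of 20. VPM replicate 3 was that library in 7 of the 11. It was the low one for Htr1b (22.1 CPM against 50.5 to 56.1, ratio 0.835), Slc18a2 (206 CPM against 368 to 388, ratio 0.89), Pbx3 (0.62 CPM against 3.76 to 3.9, ratio 0.958) and Cacna1i (2.92 CPM against 4.09 to 4.31, ratio 0.842). It was the high one for S100a10 (336 CPM against 178 to 201, ratio 0.852), Uqcr10 (1470 CPM against 424 to 555, ratio 0.874) and Tnr (0.992 CPM against 0.742 to 0.779, ratio 0.851). VPM replicate 4 was low for Pcp4 (2501 CPM against 2888 to 2954, ratio 0.854) and high for Sncb (95.5 CPM against 70.9 to 73.5, ratio 0.894) and Sp9 (11.3 CPM against 3.25 to 4.08, ratio 0.896). VPM replicate 1 was high for Lmo4 (93.0 CPM against 62.9 to 67.8, ratio 0.836). VPM replicate 3 also had the highest mitochondrial share, and the part of this in its separate values was not tested. With 3 libraries, MGv was not examined in this way.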

How the results depend on the processing

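Of 212 named genes, 145 were called in each of the 18 alternatives that tested them, and among 3795 values recomputed 255 lost their call and 0 changed direction. DESeq2 called 3748 genes, limma 2658, edgeR with DESeq2 size factors 3017, without a count filter 3254, with at least 10 counts in every VPM and MGv library 2474, and with only the VPM and MGv libraries 2460. With 1 library left out, the count was 2024 to 3235 genes, with 1161 to 1711 of them toward VPM and 863 to 1524 toward MGv, and the lowest of these values came without MGv replicate 3. Without the libraries low in Hspa8 in all nuclei it was 3078, and without VPM replicate 3 and MGv replicate 1 it was 2668. With an absolute log2 fold change over 1, 1559 genes were called, 953 toward VPM and 606 toward MGv, and with an adjusted p under 0.05 there were 2020.

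The replicate numbers were not used to pair the libraries. Same-numbered VPM and MGv libraries had correlations of deviations of -0.102, -0.035 and -0.189 over 15907 genes. VPM replicate 3 correlated best with MGv replicate 1 (0.23). Deviations were taken from the mean of each nucleus, which forces some correlations to be negative. These values therefore cannot decide whether same-numbered libraries shared brains or a day, which was not tested. A replicate block over all libraries called 2695 genes, 1512 toward VPM and 1183 toward MGv. The block over replicates 1 to 3 of VPM and MGv only, with fewer libraries, called 921 genes, 535 toward VPM and 386 toward MGv. The omission of all libraries low in Hspa8 was chosen after seeing the data. At the depth of MGv a gene under 0.228 to 0.295 CPM was below 3 counts in a library, so fold changes of genes near that floor depend on few reads.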
